A study of Homo sapiens with 6 samples.

Results

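The genes described here are 9 androgen-induced prostate genes that lie outside the kallikrein cluster, TMPRSS2, FKBP5, PMEPA1, NDRG1, SLC45A3, AZGP1, FOLH1, ACPP and ELL2, taken by symbol from the 26255 genes that carry an FPKM value in every sample. All 9 were found, and all 9 were among the 12729 genes tested, those whose mean FPKM in the 6 samples was 1 or more. The samples are 22RV1 cells, an established human castration-resistant prostate cancer (CRPC) line. All cells grew in RPMI medium with fetal bovine serum that was not depleted of androgen. In the control group 3 samples received DMSO for 24 h, and in the other group 3 samples received 10 nM bruceantin (BCT), a plant-derived quassinoid, for 24 h. No arm with androgen withdrawn was analysed here, and a single line was used, so a change with BCT cannot be assigned to androgen signaling from these samples. The labels do not say whether the samples of a group came from separate cultures, so the p-values measure only the spread between these samples.

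Androgens activate genes through androgen response elements, which are inverted repeats of a short half-site in DNA. In prostate epithelium the genes they raise include secreted and membrane proteins of the gland, such as AZGP1, ACPP, SLC45A3 and TMPRSS2, and regulators inside the cell, such as FKBP5, PMEPA1, NDRG1 and ELL2. Several are also driven by other signals: FKBP5 by glucocorticoids, PMEPA1 by TGF-beta and NDRG1 by hypoxia. FOLH1 is a prostate marker that is known to be lowered, not raised, by androgen in prostate cancer lines, which goes against its label here.

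FPKM values take both the length of a transcript and the size of the library into account, so levels can be compared between genes per length. The files hold no read counts, so the reads behind each value are unknown. Among genes of low value, the most common ratio of FPKM between samples gave a depth relative to DMSO replicate 1 of 0.880 to 1 in the DMSO samples and 1.05 to 1.13 in the BCT samples. A single small RNA gene, MIR6087, took 43.5% to 55.3% of the FPKM sum with DMSO and 31.7% to 32.5% with BCT. Over all genes tested, BCT replicate 1 correlated with the DMSO samples at 0.892 to 0.896 and the other BCT samples did so at 0.851 to 0.857 (Pearson's r across genes, which are not replicates). All 7 luminal epithelial markers were above 1 FPKM, and none of 3 basal and 3 leukocyte markers was.

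With DMSO, FKBP5 was the most abundant of the 9 genes at 162.0 ± 2.22 FPKM (SD, n = 3), followed by AZGP1 at 80.7 ± 5.03, ELL2 at 71.1 ± 3.91 and PMEPA1 at 69.6 ± 4.99. ELL2 and PMEPA1 overlapped in their samples. FOLH1 came next at 32.96 ± 2.63 FPKM. NDRG1 at 19.0 ± 3.47, SLC45A3 at 13.6 ± 2.30 and TMPRSS2 at 12.7 ± 0.944 FPKM formed a run in which each overlapped the next, and ACPP was the lowest at 5.15 ± 0.324 FPKM. With BCT the order changed. FKBP5 was again the most abundant at 63.6 ± 4.38 FPKM, FOLH1 went from rank 5 to rank 2 at 43.1 ± 3.50 FPKM, and AZGP1 went from rank 2 to rank 5 at 15.03 ± 1.47 FPKM. SLC45A3 became the lowest at 2.63 ± 0.802 FPKM, overlapping ACPP at 3.19 ± 0.178, and this was the only pair of neighbours in the BCT order that overlapped.

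**Figure D1:**
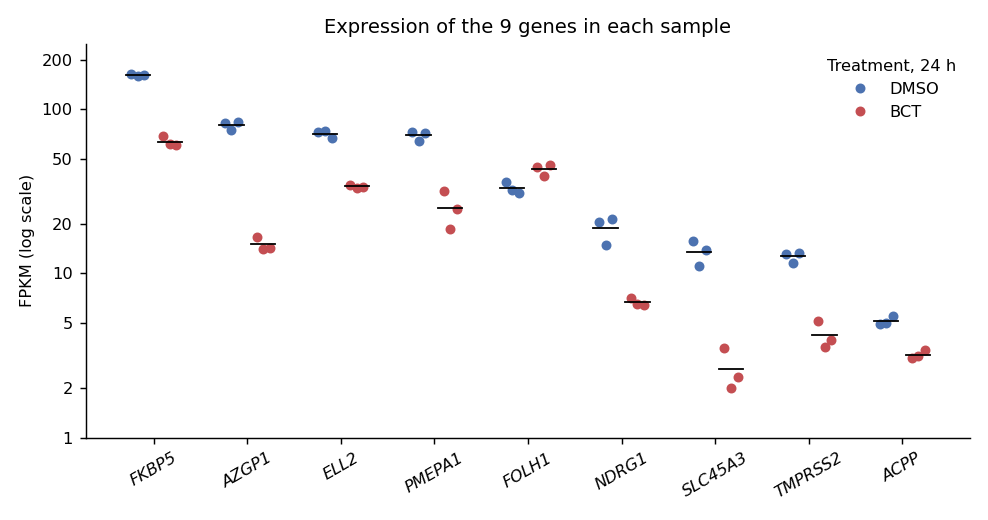
Expression of the 9 genes in every sample, in FPKM on a log axis, ordered by the DMSO mean (points, 1 sample each, 3 DMSO in blue and 3 BCT in red, black bars the group means). The BCT points lie below the DMSO points in 8 genes and above them in FOLH1, which runs from 30.9 to 35.9 FPKM with DMSO and from 39.2 to 45.9 FPKM with BCT.

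A gene was called when its log2 fold change on log2(FPKM + 0.1), a scale that understates the change of low genes, was above 0.85 in size at an FDR below 0.05 (limma with Benjamini-Hochberg adjustment over all genes tested). Of the 9 genes, 7 were called lower in BCT-treated cells (AZGP1, SLC45A3, TMPRSS2, PMEPA1, NDRG1, FKBP5 and ELL2) and 0 were called higher. Of all genes tested, 17.8% were called lower and 13.9% higher. The FDR alone was passed by all 9, but it was also passed by 82.1% of all genes tested, a share near to theirs. Every BCT sample was lower than every DMSO sample in 8 of the 9 genes, against 44.3% of all genes, and higher than every DMSO sample in FOLH1 alone, against 41.0% of all genes. The median log2 fold change was -1.48 for the 9 genes and -0.04 for all genes tested. The study singled out TMPRSS2, PMEPA1 and FKBP5 as lowered on these same samples, so their direction is not independent evidence. In bulk RNA, less transcript per cell cannot be told apart from fewer cells that make it.

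**Figure D2:**
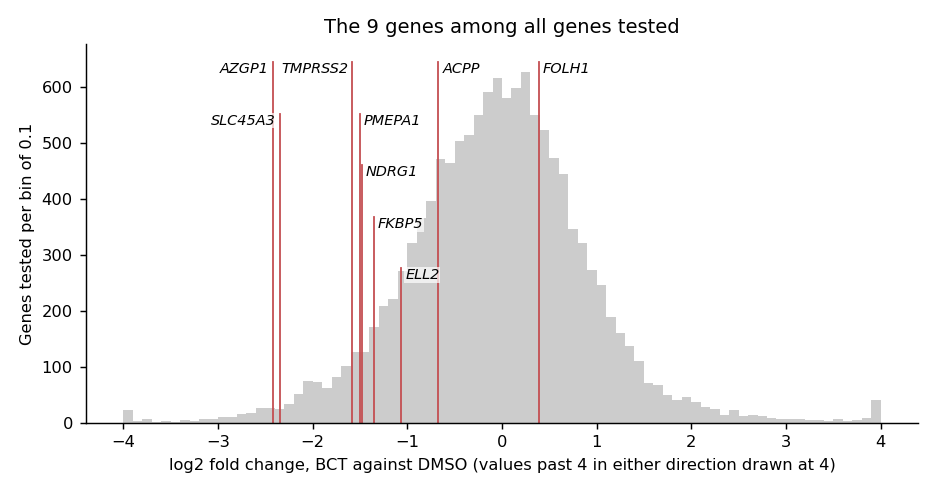
Histogram of the log2 fold change, BCT against DMSO, of all 12729 genes tested in bins of 0.1, with a red line at each of the 9 genes (line heights only separate the names). AZGP1 and SLC45A3 stand in the lower tail, the next 5 genes lie on the lower shoulder, and FOLH1 lies to the right of the median of -0.04.

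AZGP1 encodes zinc-alpha-2-glycoprotein, a secreted protein of the prostate that is related to MHC class I molecules and takes part in lipid mobilization. It lies on chromosome 7 from 99564343 to 99573665 on the minus strand (positions here are those of GENCODE genes lifted to GRCh37, the build of the files). Its levels were 83.0, 74.9 and 84.1 FPKM in the controls and 16.7, 14.0 and 14.3 FPKM in the BCT samples. The groups were far apart, and BCT left 18.6% of the control level. This was a log2 fold change of -2.42 (95% interval -2.60 to -2.24, adjusted p = 2.8e-07 by limma), and only 1.26% of all genes tested had a lower value. The nearby pseudogene AZGP1P1, whose sequence is close to that of AZGP1, was at 1.04 ± 0.172 FPKM with DMSO and 0.410 ± 0.116 with BCT, or 1.29% and 2.73% of the AZGP1 level. Whether reads were shared between them was not tested.

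SLC45A3 encodes prostein, a membrane transporter largely restricted to prostate, and lies on chromosome 1 from 205626979 to 205649637. The controls held 15.7, 11.1 and 13.9 FPKM, and the treated samples 3.53, 2.01 and 2.33 FPKM. Every BCT sample was thus well below the lowest control, although the BCT samples themselves spread by 30.6% of their mean, the widest of the 9 genes. The log2 fold change was -2.35 (95% interval -2.81 to -1.89, adjusted p = 1.0e-05 by limma), a wider interval than that of AZGP1. Within its family, SLC45A4 was at 1.78 ± 0.149 and 1.09 ± 0.106 FPKM (log2 fold change -0.66, not called), and SLC45A1 and SLC45A2 had means under 1 FPKM and were not tested.

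TMPRSS2 encodes a membrane-anchored serine protease and lies on chromosome 21 from 42836227 to 42903043. The DMSO samples held 13.2, 11.7 and 13.4 FPKM and the BCT samples 5.17, 3.55 and 3.93 FPKM. No sample overlapped, and BCT replicate 1 was the highest of the treated samples. Its log2 fold change was -1.59 (95% interval -1.89 to -1.29). Of 14 other type II transmembrane serine proteases, 11 had means under 1 FPKM (TMPRSS3, TMPRSS5, TMPRSS6, TMPRSS7, TMPRSS9, TMPRSS11A, TMPRSS11D, TMPRSS11E, TMPRSS13, TMPRSS15 and CORIN). Among the 3 tested, HPN, which encodes hepsin, was called lower at -1.40, from 14.2 ± 1.28 to 5.32 ± 0.740 FPKM. ST14 was at -0.60 and TMPRSS4 at 0.72, and neither was called. The median of the 3 was -0.60, and 0.16 with 0 called lower after rescaling to equal FPKM sums. That rescaling moved the median of all genes tested from -0.04 to 0.72.

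ACPP, which encodes prostatic acid phosphatase, an enzyme secreted into semen, lies on chromosome 3 from 132036213 to 132087146 on the plus strand, under the newer symbol ACP3. In the controls it measured 4.90, 5.03 and 5.51 FPKM, and in the BCT samples 3.06, 3.12 and 3.40 FPKM. The groups did not overlap, but the difference was small at 62.1% of the control level. The log2 fold change of -0.67 (95% interval -0.86 to -0.49, adjusted p = 7.2e-05 by limma) passed the FDR and not the fold change threshold, and 23.6% of all genes tested had a lower value. Among other acid phosphatases, ACP6 was called higher at 0.86, ACP2 was at 0.79 and ACP1 at -0.02, and ACPT and ACP5 had means under 1 FPKM.

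FOLH1 encodes prostate-specific membrane antigen (PSMA), the glutamate carboxypeptidase used as a target for prostate cancer imaging. It lies on chromosome 11 from 49166644 to 49230190. Control samples measured 35.9, 32.0 and 30.9 FPKM, and BCT samples 44.3, 39.2 and 45.9 FPKM. All BCT samples were above all DMSO samples, by a narrow margin of 39.2 against 35.9 FPKM. The ratio of the means was 1.31, with a log2 fold change of 0.39 (95% interval 0.20 to 0.57, adjusted p = 0.0018 by limma), under the fold change threshold. The paralog FOLH1B, whose reads could be shared with FOLH1, was at 2.67 ± 0.0853 FPKM with DMSO and 3.24 ± 0.145 with BCT, 8.11% and 7.50% of the FOLH1 level, and was 0.27 higher on the log2 scale. NAALADL2 was at -0.51 and was not called, and NAALAD2 and NAALADL1 had means under 1 FPKM.

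Turning to the regulators inside the cell, FKBP5 encodes FKBP51, an immunophilin that joins HSP90 and steroid receptors in their maturation complexes. The gene spans chromosome 6 from 35541362 to 35696360. Its 3 DMSO samples were at 164.3, 159.9 and 161.7 FPKM, the tightest of the controls with a spread of 1.37% of the mean, and the BCT samples at 68.5, 61.9 and 60.3 FPKM. The groups were separated by more than the whole range of either. The log2 fold change was -1.35 (95% interval -1.48 to -1.22, adjusted p = 6.3e-07 by limma). Of 13 other FKBP family genes tested, 6 were called lower and 0 higher, with a median of -0.74. After rescaling to equal FPKM sums it was 0.03, with 1 lower and 4 higher. The median of all genes tested was then 0.72, against -0.04 as deposited. FKBP4, which encodes the related HSP90 partner FKBP52, was called at -0.99, from 177.7 ± 0.347 to 89.4 ± 7.32 FPKM. FKBP9 at -1.71, FKBP1B at -1.21, FKBP10 at -1.09, FKBP1A at -1.07 and FKBP2 at -1.02 were the others, while FKBP8 at -0.74, FKBP15 at 0.02, FKBPL at 0.04, FKBP3 at 0.17, FKBP14 at 0.33 and FKBP11 at 0.81 were among the 7 not called. FKBP6 and FKBP7 had means under 1 FPKM.

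PMEPA1 encodes a membrane protein that binds SMADs and the ubiquitin ligase NEDD4 and that dampens TGF-beta signaling. It lies on chromosome 20 from 56223448 to 56286592. The DMSO samples measured 73.1, 63.9 and 71.7 FPKM, and the BCT samples 31.7, 18.7 and 24.7 FPKM. The treated samples were all lower, with the widest gap between BCT replicates 1 and 2. The log2 fold change was -1.501 (95% interval -1.88 to -1.12). The noncoding gene NKILA is deposited with the same interval as PMEPA1 and was called lower too, at -2.05, from 4.64 ± 0.653 to 1.06 ± 0.303 FPKM. The library kit does not mark strand, so reads of the 2 genes cannot be told apart where they overlap. LDLRAD4, the closest relative of PMEPA1, had a mean under 1 FPKM.

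Promoter windows were examined for only 5 of the 9 genes, PMEPA1, FKBP5, AZGP1, SLC45A3 and ACPP. The other genes were left unsearched, which says nothing about whether RefSeq holds starts for them. Each window ran from 250 bases before to 50 after a start annotated in RefSeq. Its build, GRCh38.p14, is later than GRCh37, the build of the deposited values. There were 9 windows in all. They were searched for the half-site AGAACA on either strand, and for 2 half-sites in inverted repeat with 3 bases between them and at most 2 mismatches in the 12 compared bases, matches of which can overlap. The half-site was in 3 of the 9 windows and in 14.8% of all 35116 windows, and the inverted repeat was in 1 of the 9 and in 1.41% of all windows. The match with the inverted repeat lies 238 bases before a start of PMEPA1. The windows shown are that one, the FKBP5 window whose half-site begins at the annotated start, and those of AZGP1 and SLC45A3, the genes with the largest falls, in which neither motif was found. Capitals mark the matches. Known androgen response elements of TMPRSS2 and FKBP5 lie in enhancers and introns outside such windows, and a match or its absence says nothing here about binding.
PMEPA1 (chr20:57710528-57710827, minus strand): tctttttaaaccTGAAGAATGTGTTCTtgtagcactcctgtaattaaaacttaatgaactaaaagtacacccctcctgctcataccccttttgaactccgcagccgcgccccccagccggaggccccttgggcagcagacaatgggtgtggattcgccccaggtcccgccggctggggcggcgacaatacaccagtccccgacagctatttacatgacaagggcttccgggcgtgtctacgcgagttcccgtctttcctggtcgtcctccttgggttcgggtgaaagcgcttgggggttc
FKBP5 (chr6:35728534-35728833, minus strand): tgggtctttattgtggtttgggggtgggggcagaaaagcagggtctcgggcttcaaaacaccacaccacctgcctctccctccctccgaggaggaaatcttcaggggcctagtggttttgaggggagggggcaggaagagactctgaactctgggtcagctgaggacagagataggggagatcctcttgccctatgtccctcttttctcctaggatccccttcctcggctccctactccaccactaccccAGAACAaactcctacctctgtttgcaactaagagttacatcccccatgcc
AZGP1 (chr7:99975982-99976281, minus strand): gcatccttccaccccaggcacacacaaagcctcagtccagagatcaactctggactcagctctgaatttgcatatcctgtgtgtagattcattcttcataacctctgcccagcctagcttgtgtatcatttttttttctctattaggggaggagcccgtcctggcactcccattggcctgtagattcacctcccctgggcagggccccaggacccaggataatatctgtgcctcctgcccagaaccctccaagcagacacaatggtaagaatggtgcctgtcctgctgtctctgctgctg
SLC45A3 (chr1:205680460-205680759, minus strand): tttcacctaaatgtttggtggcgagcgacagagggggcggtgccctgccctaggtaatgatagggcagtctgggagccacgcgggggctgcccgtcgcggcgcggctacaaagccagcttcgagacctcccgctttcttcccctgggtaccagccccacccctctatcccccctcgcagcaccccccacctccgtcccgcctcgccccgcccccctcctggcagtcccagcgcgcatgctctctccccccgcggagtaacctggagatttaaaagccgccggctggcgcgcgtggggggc

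Of the 3 windows that held a half-site, 2 belong to PMEPA1 and 1 to FKBP5. No half-site was found in the window of ACPP.

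NDRG1 encodes a cytoplasmic protein linked to differentiation and stress, and lies on chromosome 8 from 134249418 to 134314265. Its controls measured 20.6, 15.01 and 21.4 FPKM, and its BCT samples 7.07, 6.54 and 6.39 FPKM. Here it was the controls that spread, by 18.3% of their mean, while the BCT samples lay within 5.37% of theirs. The log2 fold change was -1.48 (95% interval -1.77 to -1.19). All 3 other genes of the family were called lower, NDRG2 at -1.06, NDRG4 at -0.92 and NDRG3 at -0.851, barely past the threshold. Of all genes tested, 17.8% were called lower. With median-ratio scaling, and with quantile normalization, 2 of these 3 were called lower. Rescaled to equal FPKM sums, 0 of these 3 were called and their median was -0.16, where that of all genes tested was 0.72.

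ELL2 encodes an elongation factor of RNA polymerase II and a subunit of the super elongation complex. GENCODE places it on chromosome 5 from 95220802 to 95297555, whereas the deposited interval runs to 95966789 and is shared with PCSK1, which was at 0.159% of the ELL2 level with DMSO. ELL2 measured 72.5, 74.1 and 66.7 FPKM in the controls and 34.8, 33.3 and 33.6 FPKM in the BCT samples. The treated samples agreed closely, within 2.33% of their mean, at 47.7% of the control level. The log2 fold change was -1.06 (95% interval -1.19 to -0.94), the smallest among the 7 called. Its relatives ELL at 0.40 and ELL3 at -0.04 were not called. Of 11 tested partners in or around the complex, which include those relatives, 0 were called lower and 4 were called higher. These were the scaffolds AFF4, at 1.97 from 8.52 ± 0.721 to 33.7 ± 2.36 FPKM, and AFF1 at 1.11, with the subunit MLLT3 at 1.02 and the P-TEFb inhibitor HEXIM1 at 0.93. With equal FPKM sums 9 of the 11 were called higher, and 8 were when MIR6087 was left out of the sums. Of all 12729 genes tested, 5614 and 3370 were called higher under these scalings, against 1764 as deposited. EAF2 had a mean under 1 FPKM.

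**Figure D3:**
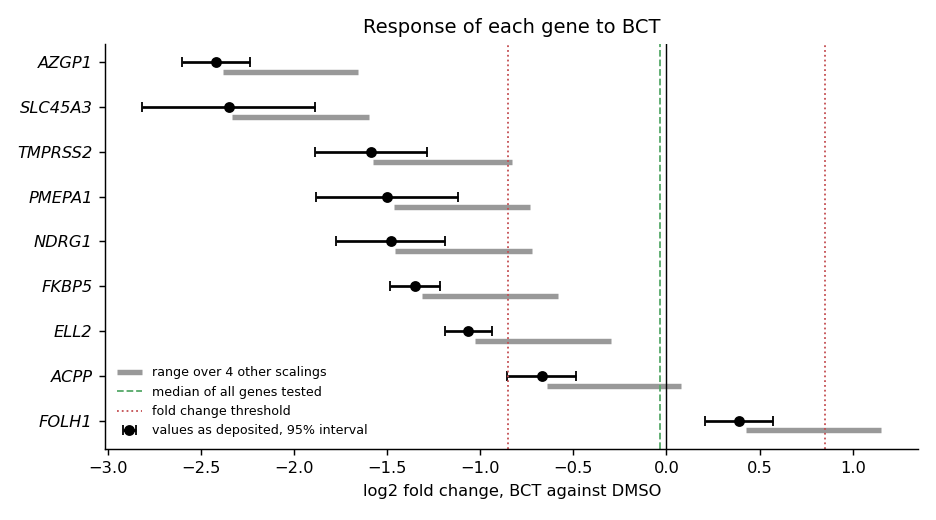
Log2 fold change, BCT against DMSO, of each gene as deposited (points, with the 95% interval from limma), with its range under 4 other scalings (grey bars), the median of all genes tested (dashed) and the fold change threshold (dotted). The points run from -2.42 for AZGP1 to 0.39 for FOLH1, and the grey bars of AZGP1 and SLC45A3 stay past the threshold.

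The fold changes depend on how samples are scaled to each other. When all samples were given one common FPKM sum, the median log2 fold change over all genes tested went from -0.04 to 0.72, which changed the share of lower genes among those called from 56.2% to 10.6%. Under it AZGP1 (-1.65) and SLC45A3 (-1.60) were still called lower, TMPRSS2 (-0.83), PMEPA1 (-0.73), NDRG1 (-0.72), FKBP5 (-0.58) and ELL2 (-0.30) were below the fold change threshold, ACPP turned to 0.08, and FOLH1 was called higher at 1.15. In that fit limma took the spread of each gene from the trend with mean level alone. Its p-values can thus be too small, and the calls rest on the fold change. Rescaled without MIR6087, which left 26.4% of the called genes lower, 6 of the 9 genes were called lower and ELL2 was at -0.68. Relative to the median of all genes tested, the 9 genes hardly moved between deposited values and equal sums. ACPP was at -0.63 and -0.64, ELL2 at -1.03 and -1.02, and FOLH1 at 0.42 and 0.43.

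Ratios of FPKM between genes of one sample do not depend on a scaling by 1 factor per sample. The log2 ratios and their overlaps were taken on FPKM + 0.1, so for low genes this holds only nearly. Ratios given as times are of FPKM itself. Quantile normalization is not such a scaling, and the ratios here are those of the deposited values. Of 36 pairs of the 9 genes, 27 had ratios that did not overlap between the groups, and 9 overlapped. The share over pairs of all genes was not computed, so this count is a description only. Among single genes tested, 44.3% had every BCT sample below every DMSO sample and 41.0% had every BCT sample above. For 3 samples against 3, an exact permutation test cannot go below p = 0.1, so the ratios are given without a test. AZGP1 and SLC45A3 moved by similar amounts, with a log2 ratio of 2.58 ± 0.17 with DMSO and 2.51 ± 0.27 with BCT (SD, n = 3 each). TMPRSS2, PMEPA1, NDRG1 and FKBP5 formed a further group in which the ratios of all pairs overlapped between DMSO and BCT. The widest shift among these 4 genes was -0.24, for TMPRSS2 against FKBP5. The overlap of that pair rested on BCT replicate 1, at -3.70 within the DMSO range of -3.77 to -3.59. BCT replicates 2 and 3 were below that range, at -4.08 and -3.90. After quantile normalization the log2 fold changes of TMPRSS2 and FKBP5 were -1.58 and -1.11, further apart than the deposited -1.59 and -1.35. The ratios of PMEPA1 and NDRG1 to ELL2 overlapped too, with shifts of -0.44 and -0.42. The log2 ratio of SLC45A3 to TMPRSS2, the neighbours across these groups, went from 0.08 ± 0.16 to -0.69 ± 0.13. FKBP5 to ELL2 went from 1.19 ± 0.08 to 0.90 ± 0.07 and ELL2 to ACPP from 3.76 ± 0.16 to 3.37 ± 0.10, without overlap. FOLH1 moved against all the others: it was at 0.367 to 0.433 times the AZGP1 level with DMSO and at 2.65 to 3.20 times with BCT. Against ACPP, the gene nearest to it in response, it went from between 5.61 and 7.34 times to between 12.6 and 14.5 times.

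**Figure D4:**
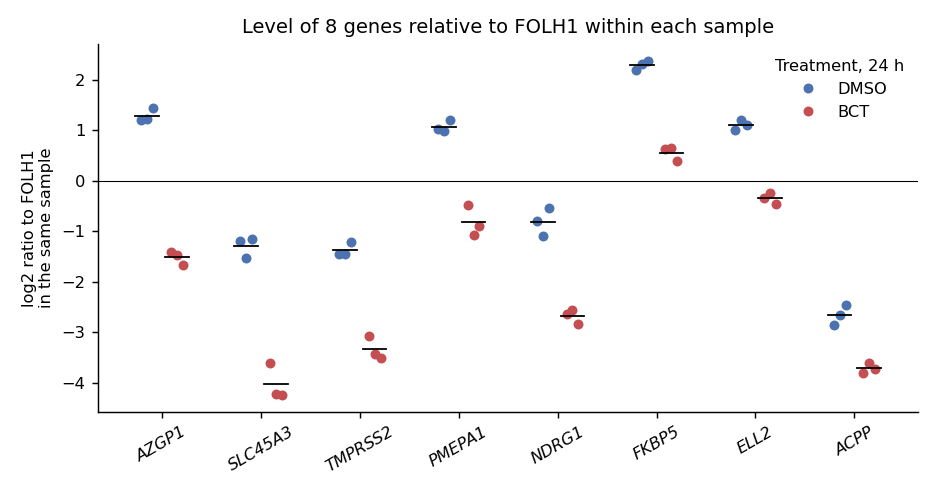
Log2 ratio of each of the other 8 genes to FOLH1 within the same sample (points, 1 sample each, 3 DMSO in blue and 3 BCT in red, black bars the means). In all 8 genes the BCT points lie below the DMSO points, with AZGP1 going from a mean of 1.29 to -1.52 and ACPP from -2.65 to -3.71.

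Among the treated samples, BCT replicate 1 was the highest in all 7 genes called lower. The same sample was the highest in 89.2% of all 2263 genes called lower, so this was common to lowered genes. In ACPP and FOLH1, which were not called, BCT replicate 3 was the highest. Without BCT replicate 1, all 7 were still called lower.

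The other genes of the androgen response were called in both directions, as were all genes tested (17.8% lower and 13.9% higher). Of 68 tested genes listed as androgen-induced, kallikreins left out, 24 were called lower and 10 higher, with a median of -0.51. Of the 13 in lipid synthesis, 11 were called lower and 0 higher with a median of -1.99, led by the sterol sensor INSIG1 at -4.73, the desaturase SCD at -3.72, the mevalonate enzyme HMGCS1 at -3.01 and the acyl-CoA binding protein DBI at -2.55. The other 55 genes had 13 called lower and 10 called higher and a median of -0.11, near that of all genes. STEAP4, a metalloreductase, was at 4.38, the small GTPase RHOU at 2.90, the kinase SGK1 at 2.51 and the nicotinic receptor subunit CHRNA2 at -2.48. RHOU, for example, rose from 24.9 ± 1.503 to 187.5 ± 26.8 FPKM and CHRNA2 fell from 25.7 ± 1.78 to 4.73 ± 1.78 FPKM. A further 10 listed genes had means under 1 FPKM. Rescaled to equal sums, 9 of the 68 were called lower and 26 higher, and the median of the 55 was 0.65. Of all 12729 genes tested, 668 were then called lower and 5614 higher, with a median of 0.72.

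Of genes known to be lowered by androgen, 2 of 8 tested were called lower (GRIN3A at -2.66 and DDC at -1.85). Another 2 were called higher (KLF5 at 1.40 and MET at 1.32). These counts are near the shares of all genes tested, 17.8% lower and 13.9% higher. The median of the 8 was 0.08, and with equal sums it was 0.85, with 2 called lower and 4 higher. That of all genes tested was -0.04, and 0.72 with equal sums.

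**Figure D5:**
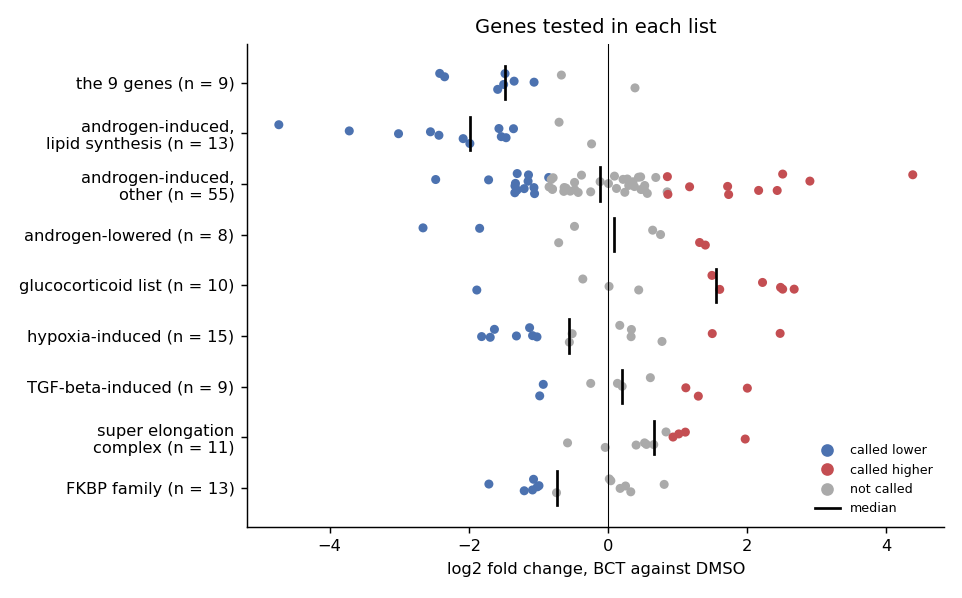
Log2 fold change, BCT against DMSO, of the tested genes of each list (points, blue called lower, red called higher, grey not called, with vertical scatter for clarity only), and the list median (black line). The 9 genes and the lipid synthesis genes lie mostly left of 0, the glucocorticoid list mostly right of it with a median of 1.55, and the other androgen-induced genes on both sides.

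Lists were also counted for other signals known to drive some of the 9 genes. Beside them, 17.8% of all genes tested were called lower and 13.9% higher, with a median of -0.04. With equal sums the median of all genes was 0.72, and 5614 of 12729 were called higher. The glucocorticoid list, the class of FKBP5, had 6 of 10 called higher and 1 lower with a median of 1.55, including the phosphatase DUSP1 at 2.68, SGK1 at 2.51, the EGFR inhibitor ERRFI1 at 2.48 and NR3C1 at 2.22, which went from 4.14 ± 0.215 to 19.7 ± 1.98 FPKM. NR3C1 encodes the glucocorticoid receptor and is not itself an induced target, and of the 9 other genes of the list 5 were called higher and 1 lower. Hypoxia-induced genes, the class of NDRG1, had 7 of 15 called lower and 2 higher with a median of -0.56, which became 0.20 on rescaling to equal sums. BNIP3 at -1.82, BNIP3L at -1.69 and PFKFB4 at -1.63 were lower, and ADM was higher at 2.47. TGF-beta-induced genes, the class of PMEPA1, had 2 of 9 called lower and 3 higher, with SMAD6 at -0.98 and BAMBI at 2.002, SKIL at 1.30 and CTGF at 1.12. Their median was 0.20, and with equal sums it was 0.97, with 0 called lower and 6 higher. Of the members of these lists, 0, 1 and 3, in that order, had means under 1 FPKM.

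The genes whose pattern over the 6 samples was most like the mean standardized profile of the 9 genes were CALM2, AKTIP, METTL9, HAUS3 and PTGES3, with Pearson's r of 0.9993 to 0.9996. These 6 samples fall into 2 groups, so the values are a description only. Of these 5 genes, METTL9 was called lower, at -1.31, and the others were between -0.69 and -0.39. The 9 genes are themselves part of that profile, so their own r values are not independent of it. They correlated with it at 0.963 to 0.997, except FOLH1 at -0.827.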

How the data were processed

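RNA-seq libraries (TruSeq RNA v2) of 6 22RV1 samples were sequenced. The authors trimmed reads with Trimmomatic (0.38 in the submitters' processing notes, which also name CASAVA and HTSeq), mapped them to hg19 (HISAT2), ran StringTie and deposited 1 FPKM value per gene and sample, without counts. The gene annotation and the test for single genes are not given in the sources used here.

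Groups and replicate numbers came from the labels. Values were compared on log2(FPKM + 0.1) by limma (version 3.58.1, R version 4.3.3), using empirical Bayes moderation with a trend and no block, in the 12729 genes whose mean FPKM was 1 or more. P-values had Benjamini-Hochberg adjustment, and the steps were tested on simulated data. Thresholds of 0.85 (log2) and an FDR of 0.05 are those of the study's results text, and the FDR of 0.01 in its methods was an alternative. No count test fits FPKM values. The 9 genes and all gene lists, written by hand from general knowledge, were chosen with earlier results of these data known. A list is described by its counts and median. Named genes are the 9, their families, at most 4 called genes of largest change per list and the 5 genes of most similar pattern. NKILA, AZGP1P1, PCSK1 and the marker genes fall outside that rule. Some members of the lists are counted but not reported here by name. ACPL2 and C18orf1 were listed but matched no symbol. Alternatives covered the pseudocount, the filter, 4 scalings, the FDR, the variance model, the replicate block and each sample left out. Promoter sequences are those of RefSeq.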

Additional observations from a re-analysis of the deposited data

How the results depend on the processing

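Of 161 values of the 9 genes under the alternatives, 153 kept their direction and their side of the threshold, 6 lost the call, 1 gained it and 1 turned (ACPP, 0.079 on rescaling to equal sums, adjusted p = 0.69 by limma). All but 1 of these changes came with rescaling to equal sums, and the other, the lost call of ELL2, with that rescaling without MIR6087. Rescaling to equal sums gave 2 of the 9 genes called lower and 1 higher, a median of -0.72, 9 other androgen-induced genes lower and 26 higher, and 668 of all genes lower and 5614 higher. Without MIR6087 the median was -1.10, 17 other androgen-induced genes were higher, and 1208 of all genes were lower and 3370 higher. Both multiply all genes of a sample by 1 factor, and FPKM values alone do not decide between scalings. With equal sums limma's total degrees of freedom rose from 8.09 to 50920, so p-values of that fit, that of ACPP included, can be too small. Without a filter 2657 of all genes were called higher, and 1150 were when the mean had to reach 5 FPKM. Leaving out each sample kept 7 genes called lower, with a median from -1.56 (without DMSO replicate 2) to -1.33 (without BCT replicate 2). Same-numbered samples deviated together at r = 0.033 to 0.116 and others at -0.115 to 0.074, so the numbers were not taken as pairs. With the replicate number as a block, 7 of the 9 genes and 2266 of all genes were called lower and 1767 higher, and the call changed for none of the 9. With 3 samples a group and no read counts, small changes such as that of FOLH1 are the least secure.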

Other observations

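The identity markers of the cells did not follow the 9 genes. The luminal keratin genes KRT8 and KRT18, which are also listed as androgen-induced, were called higher at 1.17 and 1.72, from 269.8 ± 9.10 to 609.9 ± 64.7 FPKM and from 336.8 ± 3.98 to 1109 ± 41.7 FPKM (SD, n = 3 each). FOXA1, a pioneer factor that opens chromatin, was at 152.5 ± 5.41 and 144.3 ± 11.5 FPKM and HOXB13, a prostate homeobox gene, at 90.1 ± 7.82 and 66.3 ± 10.5 FPKM (log2 fold changes -0.08 and -0.45, neither called). Of 5 stromal markers, ACTA2 at 1.83 and COL1A1 at 1.95 were called higher, from 3.91 ± 0.508 to 14.1 ± 0.925 and from 1.43 ± 0.175 to 5.83 ± 0.690 FPKM, while COL1A2, DCN and MYH11 had means under 1 FPKM. The summed stromal markers were at 5.18 to 6.16 FPKM with DMSO and 18.4 to 21.1 FPKM with BCT. Of 3 neuroendocrine markers, SYP was above 1 FPKM, at 48.3 ± 2.86 and 39.05 ± 1.60 FPKM. The part of these shifts in the results for the 9 genes was not tested.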
